A study of Homo sapiens with 12 samples.

Results

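The comparison described here is that of human brain endothelial cells exposed to silica particles of 58 nm with cells left untreated. It takes in 12247 of 58735 annotated genes, namely those whose level averaged 1 FPKM or more (fragments per kilobase of gene, scaled to library size) over 8 of the 12 libraries sequenced. The means of the genes just inside and just outside that limit were 1.0008 and 0.9999 FPKM. The cells were hCMEC/D3, a line of immortalised endothelium from human brain microvessels that serves as a model of the blood-brain barrier in culture. The 4 libraries labelled SiNP_58 nm came from cells given 100 µg/mL of particles for 24 h, the 4 control libraries came from cells without particles, and 4 further libraries came from cells given particles of 35 nm at the same dose and time. The labels do not say whether controls received a vehicle, what the particle surface was, or whether replicate libraries stem from different cultures. The p-values therefore measure only the spread among the libraries at hand, and that spread may be technical. As a single immortalised line, the cells represent one genetic background, and each library is bulk RNA.

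Type I interferon is a secreted alarm signal against viruses. It binds the receptor IFNAR, whose kinases JAK1 and TYK2 switch on transcription factors of the STAT family, and these join IRF9 on a short DNA element, the interferon-stimulated response element, in front of many antiviral genes. Inflammatory signals act through a different factor, NF-kB, which in endothelium raises chemokines and the adhesion molecules that hold leukocytes. YAP and SRF are factors that respond to the shape and tension of the cell, YAP together with TEAD proteins and SRF through the state of actin, and SREBP factors raise cholesterol synthesis when sterols are short.

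Genes past the test were those with a Benjamini-Hochberg adjusted p under 0.05 from limma on log2(FPKM + 1). Of the 12247 genes, 510 passed (4.16%), with 270 higher (2.2%) and 240 lower (1.96%) after 58 nm particles. Quantile normalization gave 198 higher and 266 lower genes. The falls were larger than the rises: the median size of change was 0.404 on the log2 scale among lower genes and 0.242 among higher genes, against 0.0855 over all genes tested. A change of more than 0.5 was seen in 96 lower and 11 higher genes. Of the 240 lower genes 39 were antiviral genes of the interferon response. Of the 270 higher genes 63 were on any of the 44 gene lists, among them targets of YAP, actin genes and cholesterol synthesis genes. In 8 fits that each left out 1 of the 8 libraries, 138 of the lower and 62 of the higher genes passed every time.

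**Figure D1:**
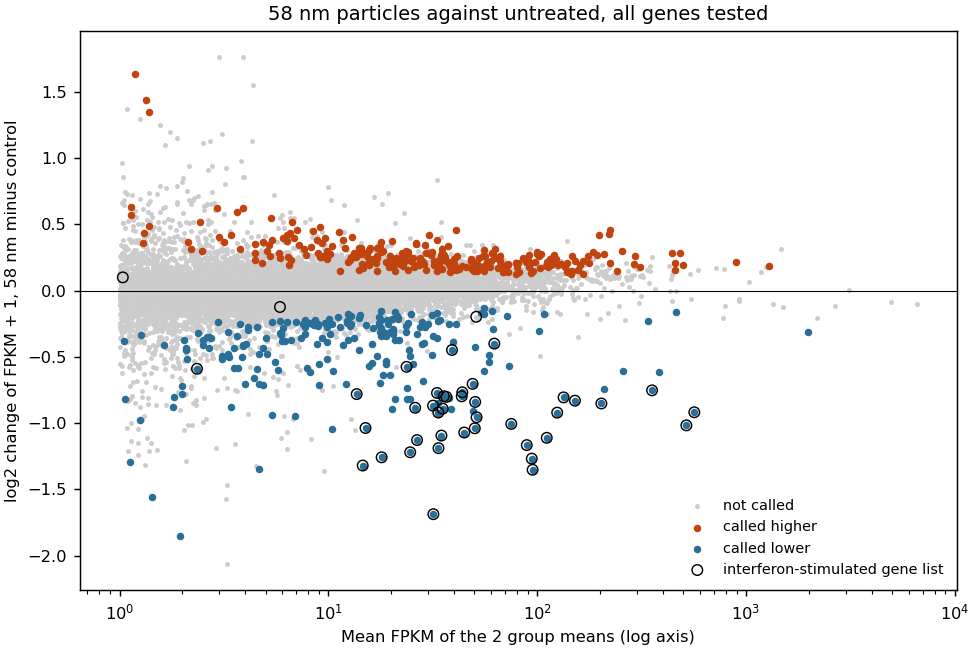
Each point is 1 gene, with its mean FPKM of the control and 58 nm groups on a log axis and its log2 change of FPKM + 1, 58 nm minus control, on the vertical axis. Called genes are coloured and members of the interferon-stimulated gene list are ringed. 39 of the 42 ringed genes are among the 240 called lower.

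The first 58 nm library stood apart from the others. Values without it are given for the gene lists described at length and for genes whose call it decides. Gene reads per library were 10039422 to 10678269 in controls and 9472317 to 10466096 after 58 nm particles, and 3 reads on 1 kb of gene were worth 0.274 to 0.313 FPKM. In the first 58 nm library, levels relative to the mean of the libraries fell with gene length (Spearman's rho across genes -0.33) and rose with GC content (rho 0.47), while the other 58 nm libraries had values of -0.03 to 0.08 for length. A GC trend was not confined to it, with rho from -0.06 to 0.17 in the other 58 nm libraries and from -0.36 to -0.04 in controls. It was the highest of the 4 in 54.1% of the higher genes and in 30.8% of the lower genes, against 34.6% of all genes tested. Higher genes were also shorter, with a median of 3417.5 bases against 4624 over all genes tested, and lower genes were longer, at 6031.5 bases. Without that library, 380 of 12272 genes passed (3.1%), with 165 higher (1.34%) and 215 lower (1.75%). Of the genes called with it, 51.9% of the higher and 76.7% of the lower genes were called in the same direction without it. Of 66 called genes that the naming rule selects, 55 kept their call. With length and GC trends removed from each library, 189 of 489 genes called were higher.

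The labelled cell type was checked against endothelial genes. ENG, a TGF-beta co-receptor of endothelium, was measured at 97.2 to 106 FPKM in controls, and TIE1, an endothelial receptor kinase, at 4.83 to 5.89 FPKM. Defining endothelial genes were low: the junction proteins PECAM1 and CDH5 ranged from 1.31 to 1.67 and from 1.3 to 1.65 FPKM, VWF from 0.853 to 1.16, and the brain tight junction gene CLDN5 from 0.0834 to 0.142. The VEGF receptor gene KDR was at 0 in every control. The fibroblast collagen gene COL1A1 was well measured, at 122 to 140 FPKM, but the collagen gene COL3A1 was at 0.387 to 0.714. The fibroblast genes DCN and FAP were at 0.101 to 0.228 and 0.209 to 0.516 FPKM, and DPT and PDGFRA at 0 and at most 0.0401. The summed level of the 10 fibroblast markers was 260 to 284 FPKM in controls and 294 to 307 after 58 nm particles, and its part in the rises of matrix genes was not tested. Of 28 endothelial identity genes, 16 were tested and 1 rose, against 2.2% of all genes tested. The gene that rose was MCAM, an adhesion protein of endothelium and pericytes. It was at 11.2, 10.4, 10.6 and 11.6 FPKM in controls and 17.1, 14.5, 14.2 and 13.6 after particles, without overlap (log2 change 0.40 ± 0.074 SE, adjusted p = 0.00821 and 0.0146 without the first 58 nm library).

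Interferon-stimulated genes fell together. Of 43 genes on the list 42 were tested, and 39 were lower and 3 did not pass, with a median log2 change of -0.89 against 0.01 over all genes tested. Levels did not overlap between the groups in 39 of the 42, against 13.5% of all genes tested. The same 39 genes were lower without the first 58 nm library, with a median of -0.90, and 38 passed in all 8 fits that left out a library. Of the 50 lower genes with the smallest p, 27 were on the list. In bulk RNA, fewer cells expressing such genes and less RNA per cell cannot be told apart.

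The dynamin-like MX proteins trap viral particles, and the OAS enzymes make the messenger that starts RNA decay by RNase L. MX1 (chr21:41420304-41459214, plus strand, GRCh38) was at 115, 124, 159 and 150 FPKM in controls and at 58.4, 53.5, 46.4 and 53.1 after 58 nm particles. Every treated library was below every control, and the treated mean was 38.5% of the control mean (log2 change -1.35 ± 0.095 SE, adjusted p = 3.7e-06). MX2 fell from 21.3 ± 3.21 to 7.9 ± 0.859 FPKM (SD, n = 4 in each group, limma adjusted p = 3.7e-06). The neighbouring genes OAS1, OAS3 and OAS2 on chromosome 12 stood at 47.2 ± 6.82, 123.9 ± 16.9 and 133.6 ± 16.8 FPKM in controls and at 20.1 ± 2.64, 54.3 ± 1.95 and 54.7 ± 3.57 after particles. Their log2 changes were -1.19, -1.17 and -1.27. With the first 58 nm library left out, MX1 was at -1.40, MX2 at -1.36, OAS1 at -1.26, OAS3 at -1.16 and OAS2 at -1.27 on that scale. OASL, a related protein without the enzyme activity, is an exception on the list at -0.20 (limma adjusted p = 0.152), with 47.4 to 60.6 FPKM in controls and 43.9 to 51.8 after particles.

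IFI44L, an interferon-induced gene that serves as a blood marker of interferon exposure, had the largest fall among genes that averaged 5 FPKM or more. Its control libraries measured 41.0, 45.2, 58.9 and 51.5 FPKM and its 58 nm libraries 13.9, 14.5, 12.7 and 16.9. The highest treated library thus lay far below the lowest control, and the treated mean was 29.5% of the control mean (log2 change -1.69 ± 0.124 SE, adjusted p = 6.58e-06, largest value on leaving out a library 6.41e-05). XAF1, a pro-apoptotic interferon-induced protein, was at 24.7, 23.3, 28.3 and 26.8 FPKM against 9.76, 10.3, 9.35 and 11.3 and had the smallest p of all genes (log2 change -1.26 ± 0.067 SE, adjusted p = 8.66e-07). CMPK2, a mitochondrial nucleotide kinase induced by interferon, fell by 1.22 on the log2 scale. Its 4 controls, at 26.8 to 43.3 FPKM, were more spread than its 58 nm libraries, at 11.7 to 15.7.

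Transcription factors on the list and the brake USP18 fell as well. Other brakes, SOCS1 and SOCS3, did not pass (log2 changes 0.24 and 0.31). Nor did the factors IRF1, IRF2 and IRF3, which are not on the list (-0.15, -0.21 and 0.08). STAT2, which carries the signal from the receptor to the nucleus, fell by 0.80, IRF9 by 0.59 and IRF7, which amplifies interferon production, by 0.96 on the log2 scale. These changes were -0.84, -0.64 and -1.06 without the first 58 nm library. USP18, the protease that removes ISG15 and damps the receptor, fell from 47.9 ± 9.14 to 21.7 ± 2.37 FPKM (SD, n = 4, log2 change -1.09, limma adjusted p = 0.000196). ISG15, the ubiquitin-like modifier itself, was among the most abundant members, at 642, 681, 835 and 798 FPKM in controls and 474, 384, 334 and 373 after particles. The first 58 nm library was the highest of the treated group for ISG15 and still lay below all controls (log2 change -0.92 ± 0.1 SE, limma adjusted p = 0.00019).

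Ligase, sensor and effector members behaved alike in direction but not in size. HERC6, a ubiquitin ligase whose mouse counterpart attaches ISG15, fell by 1.13 and HERC5, the main human ISG15 ligase, by 0.45. PARP14, an ADP-ribosyltransferase, fell by 1.07, from 56.5, 60.0, 67.7 and 59.5 FPKM to 25.8, 29.5, 27.6 and 31.0. PARP9 and its partner DTX3L each fell by 1.04 on the log2 scale. The RNA sensors DDX58 (RIG-I), IFIH1 (MDA5) and DHX58 (LGP2) fell by 0.84, 0.89 and 0.78. IFI6 went from 617, 670, 730 and 752 FPKM to 411, 343, 294 and 324, and the tether of budding virions, BST2, from 445.3 ± 41.8 to 264.0 ± 28.8 FPKM (SD, n = 4). Among the IFIT proteins, which bind viral RNA, IFIT1 fell by 1.01 and IFIT2 by 0.40. The chemokine gene CXCL10 was near the detection limit, at 0.649 to 1.5 FPKM in controls and 0.702 to 1.33 after particles, and the exonuclease gene ISG20 overlapped between groups.

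**Figure D2:**
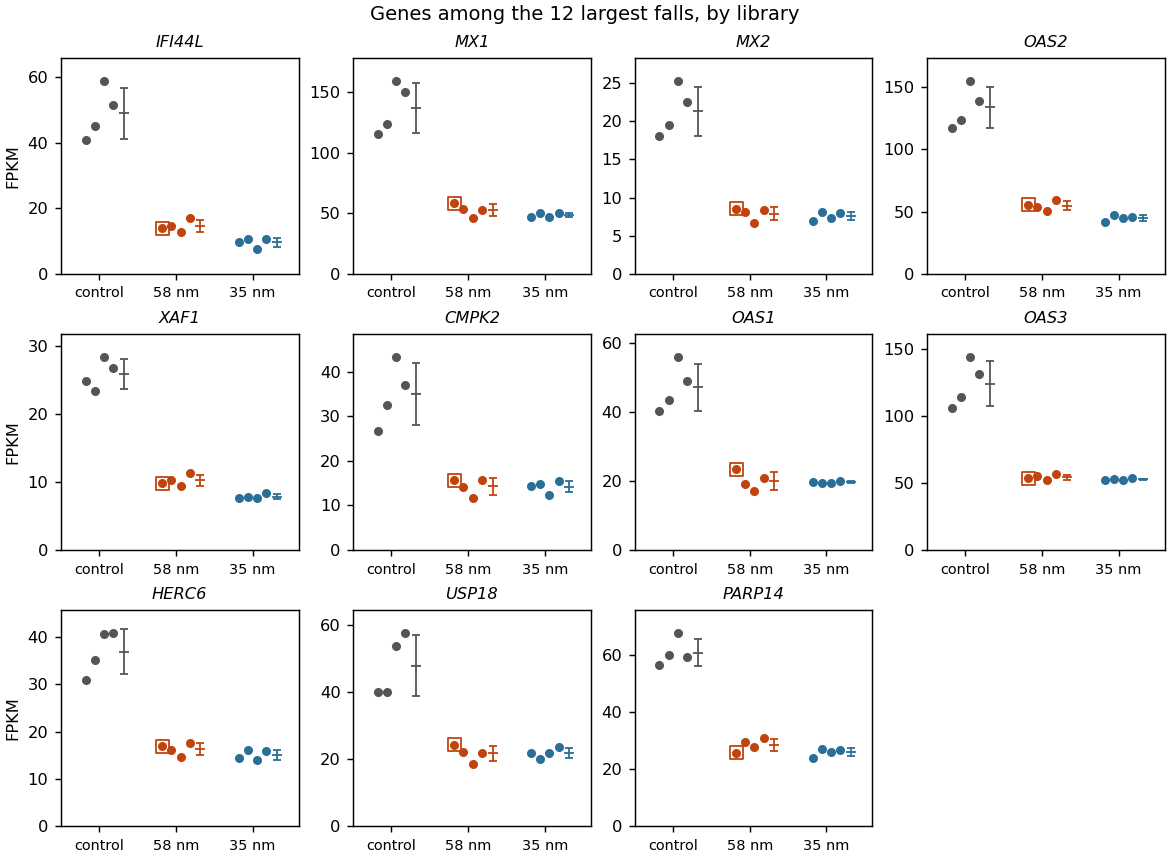
FPKM of 11 of the 12 genes with the largest falls in each control, 58 nm and 35 nm library, with bars for mean ± SD of 4 libraries. The square marks the first 58 nm library. In all 11 genes the highest 58 nm library lies below the lowest control.

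Sequences in front of members with matches outside annotated exons show the element that STAT2 and IRF9 bind. The search was for GAAA, any 1 or 2 bases, and GAAA, on both strands, in the 250 bases before RefSeq starts (GRCh38.p14), where overlapping matches were merged. Capitals mark the matches, shown with 15 bases on each side or up to the start of the gene.
IFI6, chr1:27672261-27672300, minus strand: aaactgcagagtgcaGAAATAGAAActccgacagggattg
IFI27, chr14:94110613-94110665, plus strand: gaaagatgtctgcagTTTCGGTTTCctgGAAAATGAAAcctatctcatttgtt
IFI44, chr1:78649756-78649788, plus strand: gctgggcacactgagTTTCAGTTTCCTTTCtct
IFIT1, chr10:89392492-89392544, plus strand: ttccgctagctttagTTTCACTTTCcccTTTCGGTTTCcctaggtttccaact
ISG15, chr1:1013369-1013414, plus strand: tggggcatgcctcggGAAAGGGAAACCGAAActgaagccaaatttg
RSAD2, chr2:6877617-6877656, plus strand: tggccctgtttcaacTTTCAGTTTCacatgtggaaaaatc

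A match was present before 26 of the 33 interferon-stimulated genes that had a window (78.8%), before 54 of 178 lower genes (30.3%) and before 11 of 223 higher genes (4.93%). Among 9004 tested genes with a window the share was 5.92%. Lower genes that were not on the list still had a match in 30 of 147 cases (20.4%). A match describes letters only and shows no binding, and members of the list are genes known to respond to interferon, so their share is no independent result.

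Other antiviral genes, chosen after their values were seen, were lower too. Because of that choice, the counts here are no independent result. Over all genes tested, 1.96% were lower and the median was 0.01. On a short list of RNA sensors and editors 10 of 10 tested genes fell, with a median of -0.73. They include the RNA-editing enzyme ADAR (-0.57), the translation-blocking kinase EIF2AK2 (-0.85), the helicase DDX60L (-1.05), the dNTP hydrolase SAMHD1 (-0.81) and the DNA sensor IFI16 (-0.61). Of 4 tested APOL genes 4 fell, APOL6 the most (-0.61), and of 4 tested SP100 family genes 3 fell, among them SP100 and SP110 (-0.70 each). Of 15 tested PARP genes 5 fell, of which PARP9 and PARP14 are on the interferon-stimulated list and PARP4, PARP10 and PARP12 are not. PLSCR1, a scramblase that acts as an antiviral factor, was at 58.9, 61.0, 70.8 and 67.7 FPKM in controls and 34, 33.9, 32.6 and 34.9 after particles. All 4 treated libraries lay below all controls and close together (log2 change -0.91).

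Most genes upstream of these did not pass. On a list of interferons and their signalling genes, also chosen afterwards, 19 of 29 genes were tested and 1 fell, MYD88, an adaptor of Toll-like receptors, at 20.4 to 26.0 FPKM in controls and 14.5 to 16.2 after particles (log2 change -0.55, limma adjusted p = 0.000536). IFNAR1 ranged from 16.2 to 17.7 FPKM in controls and from 16 to 16.5 after particles, JAK1 from 46.4 to 48.3 and from 42.7 to 50.6, and TYK2 from 37.0 to 39.5 and from 37.8 to 41.8. At an unadjusted limma p under 0.05, 2 of the 19 were higher and 5 lower, against 1462 and 1008 of all 12247 genes. Limma-voom called 1 higher and 3 lower. Groups did not overlap for SOCS3 (log2 change 0.31, limma adjusted p = 0.0515), IFNGR2 (0.17) and IRF2 (-0.21), which did not pass. The receptor gene IFNAR2 was below the filter, at 0.207 to 0.382 FPKM in controls and 0.246 to 0.428 after particles. The interferon gene IFNB1 stayed below the filter, at 0.108 to 0.666 FPKM in controls and 0.219 to 0.728 after particles, so a change in it was not detectable at this depth.

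Antigen presentation genes fell in part. Of 16 tested, 4 were lower, against 1.96% of all genes tested, with a median of -0.18 against 0.01 over all genes. NLRC5, the transactivator of MHC class I genes, was at 11, 11, 11.4 and 11.7 FPKM in controls and 8.97, 8.09, 8.18 and 8.3 after particles (log2 change -0.39 ± 0.044 SE, limma adjusted p = 0.000184, and 8.82e-05 without the first 58 nm library). The groups did not overlap for NLRC5, nor for TAP1, the peptide transporter, at 30.3 to 37.4 against 22.9 to 26.0 FPKM (log2 change -0.39). B2M, the light chain of MHC class I, was at 340, 372, 382 and 376 FPKM in controls and 333, 307, 311 and 304 after particles (log2 change -0.23). Without the first 58 nm library 6 members were lower, leaving out other single libraries gave 3 or 4, and removing length and GC trends gave 9.

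**Figure D3:**
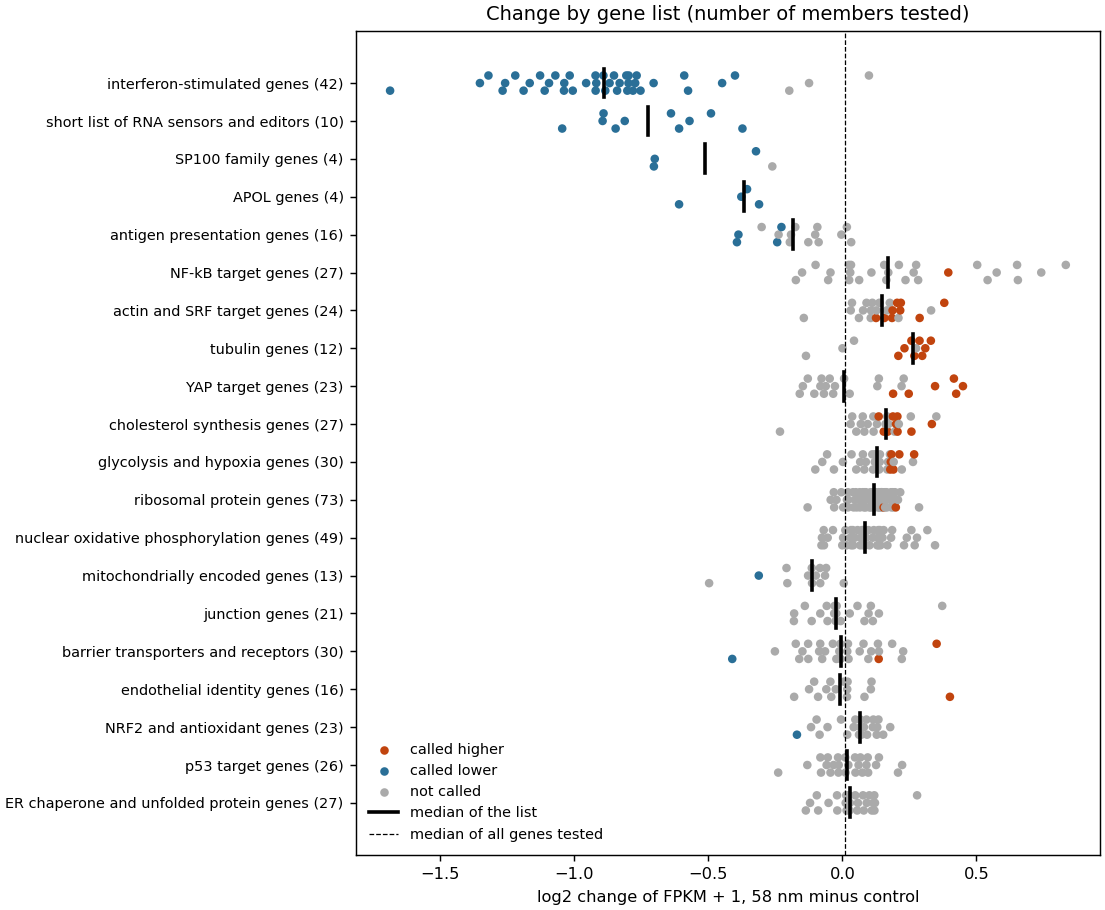
Each point is a tested gene of the list named at the left, placed by its log2 change of FPKM + 1, 58 nm minus control, and coloured where it passed. Black bars mark list medians and the dashed line the median of all genes tested. The interferon-stimulated list has a median of -0.89, and the lists for junctions, endothelial identity, p53 and the unfolded protein response lie near the dashed line.

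For NF-kB target genes the 58 nm libraries differed among themselves. Of 27 tested genes 1 passed, near the share of all genes (4.16%). At an unadjusted p under 0.05, 12 were higher and 1 lower, against 1462 and 1008 of all 12247 genes, and 22 of the 27 had a change above 0, against 6516 of all genes. The gene that passed was the chemokine gene CCL5, and its call was lost without control 1, 2, 3 or 4 or without 58 nm library 1 or 2 (adjusted p 0.0219 to 0.106 over the 8 fits). The list median was 0.17. Without the first 58 nm library it was 0.12, and 1 member other than CCL5 was called higher. CXCL8, which attracts neutrophils, was at 9.69, 13.1, 14 and 13.8 FPKM in controls and at 47.6, 21.8, 11.4 and 13.8 after particles, so the groups overlapped and the first 58 nm library was far above the rest (log2 change 0.65, limma adjusted p = 0.368). IL6 was also highest in the first 58 nm library. It was at 1.38, 1.86, 1.43 and 2.03 FPKM in controls and 7.86, 3.17, 2.39 and 2.13 after particles, without overlap (log2 change 0.74, limma adjusted p = 0.186). Groups did not overlap in 7 of the 27 genes, against 13.5% of all genes tested. ICAM1, the leukocyte adhesion molecule, was at 18.8, 19.4, 19.4 and 22.0 FPKM against 26.3, 22.9, 15.4 and 20.2 (log2 change 0.06, limma adjusted p = 0.823). CCL2, which attracts monocytes, had a mean log2 change of -0.10, with 50.5 FPKM in the first 58 nm library and 22.3 to 28.4 in the other 3. VCAM1 stayed below the filter, at 0.533 to 0.771 FPKM in controls and 0.631 to 0.939 after particles.

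Set beside the 35 nm particles at the same dose and time, which were compared with the same controls, the response to 58 nm particles differed in 9 of 42 interferon-stimulated genes and in 22 of 27 NF-kB targets. Against those controls 4321 genes passed for 35 nm particles (35.3%). Between the sizes 1382 genes differed (11.3%), with 3.54% higher and 7.74% lower in 58 nm. On the interferon-stimulated list, 39 genes passed for 35 nm, with a median of -0.95 beside -0.89 for 58 nm. Of these CXCL10 was higher after 35 nm particles (3.27 ± 0.702 FPKM, SD, n = 4, limma adjusted p = 0.000193) and the others lower. In the same list the direct test between the sizes found 5 genes higher and 4 lower in 58 nm. Among these IFI44L was 0.54 higher on the log2 scale after 58 nm particles (limma adjusted p = 0.0169) and IFIT2 was 0.39 lower (limma adjusted p = 0.01). On the NF-kB list 25 of 27 genes passed for 35 nm, with a median of 1.06, and 22 were lower in 58 nm than in 35 nm. ICAM1 measured 55.7, 52.2, 58.0 and 53.5 FPKM in the 35 nm libraries, above each 58 nm library (difference in log2, 58 nm minus 35 nm, -1.35, limma adjusted p = 7.55e-05). CXCL8 measured 73.3, 57.6, 40.8 and 56.1 FPKM there, and the first 58 nm library overlapped with that range (difference -1.42, limma adjusted p = 0.0371).

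**Figure D4:**
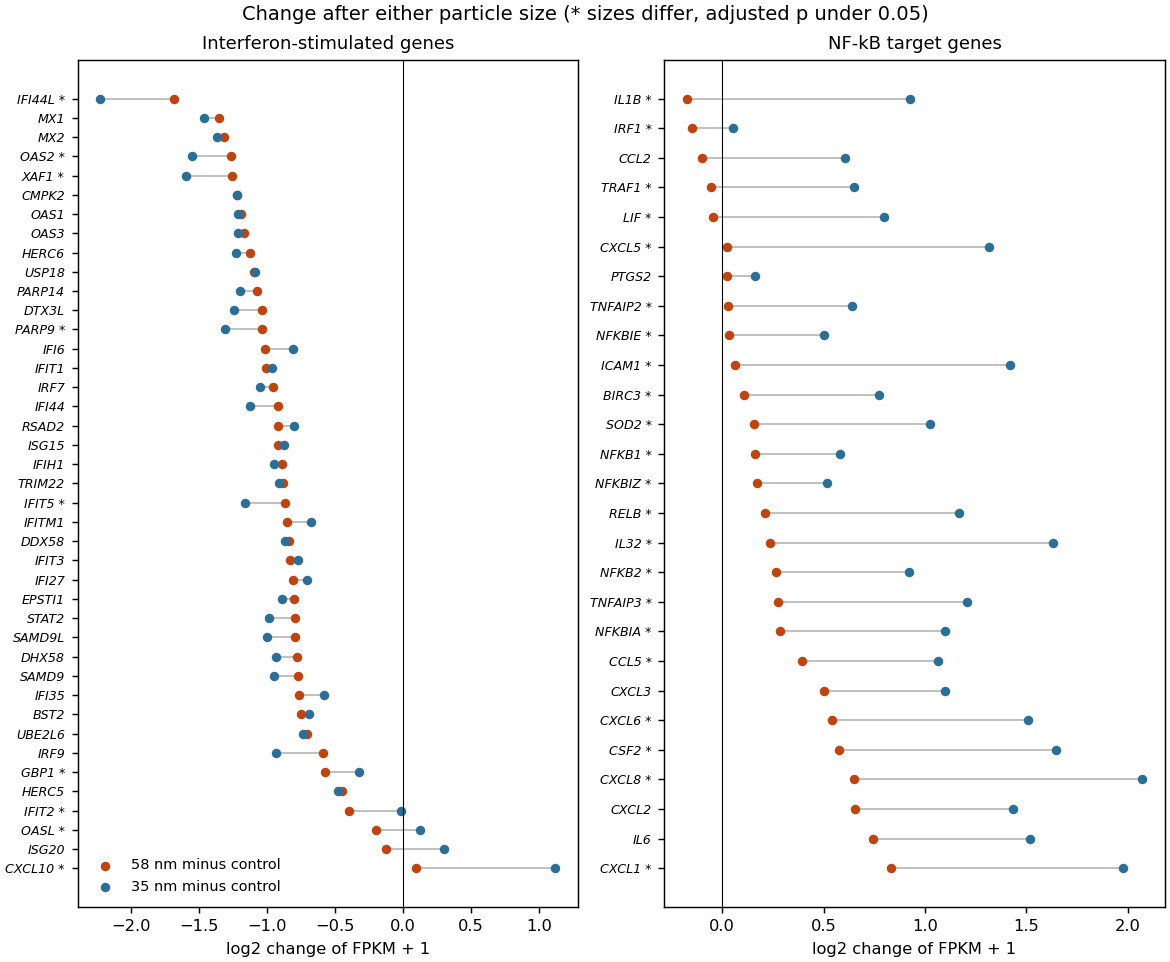
Log2 change of FPKM + 1 against the shared controls for 41 of the 42 tested genes of the interferon-stimulated list (left) and the 27 of the NF-kB list (right), after 58 nm and after 35 nm particles. An asterisk marks genes that differed between the sizes, 9 at the left and 22 at the right.

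Among the rises were targets of YAP. Of 23 tested, 6 were higher, against 2.2% of all genes tested, while the list median was 0.01, as over all genes. Without the first 58 nm library the same 6 and CRIM1, a transmembrane protein that binds BMPs, were higher, and LATS2, a kinase that restrains YAP, was lower (log2 changes 0.17 and -0.17). CTGF (CCN2, chr6:131948176-131951373, minus strand), a matricellular protein and a standard YAP readout, was at 172, 174, 159 and 170 FPKM in controls and 222, 234, 222 and 222 after particles. The 4 treated values were close to each other and all above the controls (log2 change 0.42 ± 0.036 SE, adjusted p = 1.25e-05, and 3.09e-05 without the first 58 nm library). CYR61 (CCN1), a related matricellular protein, was at 194, 190, 179 and 189 FPKM against 253, 244, 273 and 241 (log2 change 0.42 ± 0.044 SE, limma adjusted p = 8.12e-05). NUAK2, a kinase that acts on myosin, rose from 6.93 ± 0.345 to 9.85 ± 0.806 FPKM (SD, n = 4, log2 change 0.45, limma adjusted p = 0.000847). AJUBA (0.25), FJX1 (0.35) and the receptor kinase AXL (0.19) were the other members called, AXL not without control 3 (adjusted p = 0.0515). The letters GGAATG, read by TEAD proteins, or their reverse complement stood in the 250 bases before 9 of 16 YAP list genes with a window (56.2%), against 13.0% of tested genes. Among all higher genes with a window the share was 15.2% (34 of 223). Members of the list are genes known as YAP targets, so their share is no independent result, and a match shows no binding. For CTGF the letters are shown in capitals, with 15 bases on each side of the match nearer the start, which takes in another match.
CTGF, chr6:131951447-131951482, minus strand: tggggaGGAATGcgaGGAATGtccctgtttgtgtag

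Cytoskeletal genes rose by small amounts. Of 24 tested actin and SRF target genes 9 were higher, against 2.2% of all genes tested, with a median of 0.15. Without the first 58 nm library 7 were higher, and leaving out other libraries gave 3 (control 3) to 10 (58 nm library 4). FLNA, which crosslinks actin, was at 428, 417, 424 and 427 FPKM in controls and 474, 510, 500 and 472 after particles (log2 change 0.20 ± 0.038 SE, limma adjusted p = 0.00895, and 0.00679 without the first 58 nm library). ACTG1, a cytoplasmic actin, rose from 824.6 ± 38.1 to 959.0 ± 26.8 FPKM (SD, n = 4, log2 change 0.22). Both passed in all 8 fits. Of 12 tested tubulin genes, a list chosen after values were seen, 8 were higher and 7 were so without the first 58 nm library, with a median of 0.26. TUBB was at 278, 266, 266 and 261 FPKM against 328, 311, 331 and 309 (log2 change 0.26), and TUBB4B rose from 228.3 ± 4.61 to 281.2 ± 13.8 FPKM (SD, n = 4, log2 change 0.30). Actins and tubulins have near-identical paralogs and pseudogenes, and the sources used here do not give how reads with several alignments were counted, so single members are uncertain.

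Cholesterol synthesis genes rose slightly. Of 27 tested, 9 were higher, against 2.2% of all genes tested, with a median of 0.16. The same 9 were higher without the first 58 nm library. Without control 3 or 4 or 58 nm library 2 or 3, 5 passed, without control 2, 6, and quantile normalization left 3. FDFT1, squalene synthase, rose from 73.1 ± 0.92 to 84.5 ± 1.81 FPKM (SD, n = 4, log2 change 0.21, limma adjusted p = 0.00681). MVD (0.33), ACAT2 (0.19) and the fatty acid synthase gene FASN (0.21) passed in all 8 fits. HMGCS1, which starts the pathway (0.17), lost its call without control 3 or 4 or 58 nm library 2 or 3 (adjusted p up to 0.0723).

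Among the other large rises, the polyamine enzyme ODC1 was at 34.2, 33.7, 35.5 and 33.1 FPKM in controls and 53.1, 46.3, 44.4 and 45.5 after particles. All treated libraries were higher (log2 change 0.46 ± 0.051 SE, adjusted p = 0.000159, and 4.78e-05 without the first 58 nm library). TNC, a matrix glycoprotein, was at 8.39, 9.83, 9.37 and 9.93 FPKM against 12.5, 13.8, 12.1 and 13.8 (log2 change 0.44, limma adjusted p = 0.000687). GCAT, a mitochondrial enzyme of threonine breakdown, rose by 0.52 and NT5DC2 by 0.42, in all 8 fits. Of the 12 largest rises, 4 were lost without the first 58 nm library: SMURF2P1 and TMSB4XP8, pseudogenes that can share reads with SMURF2 and TMSB4X, DNPH1, a nucleotide hydrolase, and AP002387.1. Their adjusted p-values without it were 0.0577, 0.06, 0.0609 and 0.0674. SMURF2P1 was also lost without control 2, 3 or 4 or 58 nm library 2, and DNPH1 without control 1, 2 or 4 or 58 nm library 2. TMSB4XP8 was lost without control 3 or 4 or 58 nm library 2 or 4, and AP002387.1 without control 4 or 58 nm library 2 or 3. The decoy receptor gene TNFRSF10D (0.46) was lost without control 2 or 4 or 58 nm library 2 or 3 (adjusted p up to 0.0612). The 3 rises above 1 on the log2 scale were SNORD11, MIR3164 and RNU6-323P, small RNA genes with treated means of 2.31 to 2.38 FPKM. Genes this short reach such levels with few reads, because 3 reads are worth more FPKM on a gene shorter than 1 kb. SNORD11 was at 0 in every control, and MIR3164 was lost without the first 58 nm library.

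**Figure D5:**
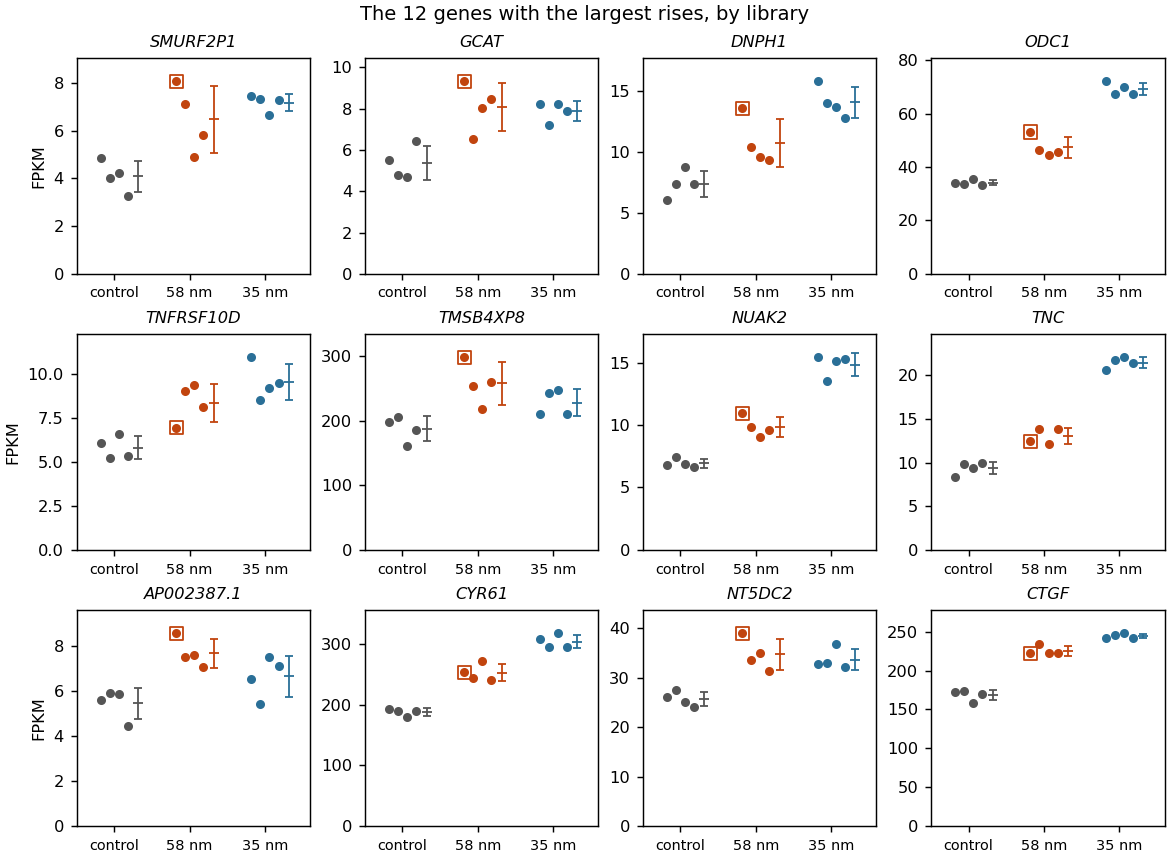
FPKM of the 12 genes with the largest rises in each control, 58 nm and 35 nm library, with bars for mean ± SD of 4 libraries; the square marks the first 58 nm library. That library is the highest of its group in 8 of the 12 genes.

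Of the genes of the blood-brain barrier, some transporters and receptors passed. Of 21 tested junction genes 0 were called by limma and 0 by limma-voom, and 2 were higher at an unadjusted p under 0.05, with a median of -0.02 and a range of -0.18 to 0.37. The tight junction genes TJP1 and OCLN changed by -0.06 and -0.11. Of 30 tested transporters and receptors, 2 were higher and 1 lower, with and without the first 58 nm library, where 2.2% and 1.96% of all genes were. Limma-voom called 4 higher and 1 lower. TFRC, the transferrin receptor that carries iron across brain endothelium, was at 22.3, 23.5, 22.8 and 22.8 FPKM in controls and 30.1, 30.9, 28.7 and 28.1 after particles, without overlap (log2 change 0.35 ± 0.040 SE, limma adjusted p = 0.000184, and 0.000608 without the first 58 nm library). ACO1, whose protein stabilises the TFRC message when iron is short, rose from 22.0 to 24.1 FPKM in controls to 27.7 to 33.2 (log2 change 0.36, limma adjusted p = 0.00151, and 0.00111 without that library). ABCB1, the efflux pump P-glycoprotein, fell from 3.07, 2.68, 3.26 and 2.99 FPKM to 1.89, 1.94, 2.17 and 2.02 (log2 change -0.41 ± 0.071 SE, limma adjusted p = 0.00518, and 0.0154 without that library). The glucose transporter SLC2A1 was at 37.8 to 43.4 FPKM in controls and 42.8 to 53.2 after particles (log2 change 0.22, limma adjusted p = 0.0923), and MFSD2A, which carries lipids and limits transcytosis, at 0.832 to 0.95 and 0.927 to 1.36 FPKM.

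Matrix and growth factor genes gave single calls in both directions. TIMP3, an inhibitor of matrix proteases that stays bound to the matrix, was at 311, 331, 294 and 301 FPKM in controls and 171, 207, 218 and 219 after particles, the lowest in the first 58 nm library (log2 change -0.60 ± 0.072 SE, adjusted p = 0.000237, and 4.64e-05 without that library). NOG, a secreted BMP antagonist, was at 2.37, 3.38, 3.09 and 2.68 FPKM against 5.06, 4.79, 4.97 and 4.92 (log2 change 0.62 ± 0.1 SE, limma adjusted p = 0.00318, and 0.0103 without that library). GREM1, another BMP antagonist, rose by 0.25, and SMAD3, a mediator of TGF-beta, fell by 0.25. Of 31 basement membrane and matrix genes tested 4 were higher, against 2.2% of all genes tested, and of the 4 TNC passed in all 8 fits. COL1A1, COL5A1 and SPARC did not, and the count was 6 without the first 58 nm library, 2 without control 1, 3 without 58 nm library 4 and 1 without any other. TGM2, a crosslinking enzyme, fell from 45.8, 43.4, 40.7 and 41.9 FPKM to 26.6, 25.2, 24.3 and 21.8 (log2 change -0.79); it belongs to no list and was chosen after its values were seen.

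Stress gene lists held no more than 1 called gene each, where 2.2% of all genes tested were higher and 1.96% lower. Of 27 unfolded protein, 26 p53 and 49 nuclear oxidative phosphorylation genes tested, 0 were called by limma, with medians of 0.03, 0.02 and 0.08. At an unadjusted p under 0.05, 6 unfolded protein genes were higher, 2 p53 genes lower and 14 oxidative phosphorylation genes higher, and limma-voom called 0, 0 and 3 of them. Of 23 NRF2 and antioxidant genes 1 was lower, the autophagy receptor SQSTM1 (log2 change -0.17), and its call was lost without control 2, 3 or 4 or 58 nm library 2, 3 or 4 (adjusted p up to 0.117). Of 19 heat shock genes 1 was higher, HSPD1, a mitochondrial chaperonin (log2 change 0.12), which was called in only 1 of the 8 fits that left out a library (adjusted p up to 0.101) and not without the first 58 nm library. At an unadjusted p under 0.05, 9 of the 19 were higher and 1 lower, and limma-voom called 2 higher and 1 lower. HMOX1, which breaks down heme, was at 8.13 to 9.7 FPKM in controls and 8.59 to 10.8 after particles (log2 change 0.09). Of 21 ATF4 stress genes 1 was lower, ATF3 (-0.33), which was lost without control 3 or 4 or 58 nm library 2, 3 or 4 (adjusted p up to 0.106). At an unadjusted limma p under 0.05, 7 of the 21 were lower and 0 higher, against 1008 and 1462 of all 12247 genes. Limma-voom called 2 lower, and without the first 58 nm library limma called 2 lower. GDF15, a secreted stress factor, was at 25.3 to 26.6 FPKM in controls and at 28.5, 20.6, 20.1 and 19.3 after particles. It did not pass with the first 58 nm library (adjusted p = 0.179) and passed without it (adjusted p = 0.000763), where the 3 remaining libraries lay below all controls. TXNIP, a glucose-regulated arrestin, fell from 22.4 ± 1.03 to 18.1 ± 0.637 FPKM (SD, n = 4, log2 change -0.29, limma adjusted p = 0.00322, and 0.00874 without the first 58 nm library).

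Growth and metabolism lists moved by small amounts, and 2.2% of all genes tested were higher. Of 30 glycolysis and hypoxia genes tested 6 were higher, with a median of 0.13, but 3 without the first 58 nm library, 1 without control 2, 3 or 4 or 58 nm library 2, 2 without control 1, and 3 without 58 nm library 3. Of 73 ribosomal protein genes 2 were higher, near the 2.2% of all genes tested. RPL10 was lost without any 1 control or 58 nm library 2, and RPL6 kept its call only without 58 nm library 4. Of the 73, 67 had a change above 0, against 6516 of all 12247 genes, with a median of 0.12, and 0.07 without the first 58 nm library. At an unadjusted limma p under 0.05, 27 were higher and 0 lower, against 1462 and 1008 of all genes. Limma-voom called 6 higher. Of 29 nucleolar genes 3 were higher, of which RRS1, a ribosome assembly factor, passed in all 8 fits (log2 change 0.23, limma adjusted p = 0.00821). Of 30 G2/M genes 2 were higher, CCNB2 (0.18), a mitotic cyclin, and AURKA (0.16), a mitotic kinase. CCNB2 was lost without control 4 (adjusted p = 0.051) and AURKA without control 2 or 58 nm library 2 (adjusted p up to 0.0557).

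Reads of the mitochondrial chromosome made up 3.12 ± 0.0558% of gene reads in controls and 2.89 ± 0.173% after 58 nm particles (SD, n = 4). The difference of -0.23 percentage points gave p = 0.0571 in a two-sided exact permutation test, where 0.0286 is the smallest p that 4 against 4 libraries can give, and it was -0.31 without the first 58 nm library. Of 13 mitochondrially encoded protein genes 1 was lower, against 1.96% of all genes tested. This gene was MT-ND4L, a complex I subunit whose gene overlaps MT-ND4. It was at 2263, 2155, 2335 and 1986 FPKM in controls and 1678, 1656, 1886 and 1818 after particles (log2 change -0.31 ± 0.056 SE, limma adjusted p = 0.00766). Without the first 58 nm library 3 were lower, MT-ND4L, MT-ND2 and MT-ND4, all complex I subunits, against 1.75% of all genes. With that library, limma-voom called 4 of the 13 lower, against 376 of all 12247 genes. The list median was -0.11 for 58 nm beside -0.77 for 35 nm, and 12 of the 13 genes were higher in 58 nm than in 35 nm. Of a panel of 33 genes for inflammation, barrier, stress, proliferation and interferon, 31 were tested. Of these 3 were higher and 6 lower, against 2.2% and 1.96% of all genes tested.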

How the data were processed

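Per the file headers, the authors deposited FPKM values with the gene length for 58735 genes in each library. Bowtie 0.12.2 and hg19 are named in the submitters' processing notes, but gene coordinates and lengths in the table equal GENCODE 29 on GRCh38, so coordinates are given as deposited. The alignment build is therefore unresolved, and the sources used here do not name the counting tool. FPKM multiplied by length gave whole reads for 100% of values, within 0.01 reads.

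From these values, log2(FPKM + 1), with a pseudocount of 1 that understates changes of low genes, was fitted with limma 3.58.1 (R 4.3.3, trended and robust) to 3 group means over all 12 libraries. All groups thus contribute to the spread. P-values are two-sided, with Benjamini-Hochberg adjustment over the 12247 genes.

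The part examined, the 44 gene lists and the panel were chosen with earlier results of these data known, and 7 further lists after values were seen. Lists are described by counts and medians, with no set test. Named genes are the 12 largest rises and 12 largest falls among genes past the test that average 5 FPKM or more and whose groups do not overlap, the 2 members with the smallest p of each list with at least 5 tested members, and the panel. Others were chosen after their values were seen, and a few named by the rule are not reported here. Alternatives covered libraries left out, pseudocounts, filters, scalings, length and GC trends, limma-voom on recovered reads and the replicate block.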

Additional observations from a re-analysis of the deposited data

Results flagged for a closer look

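Single libraries stood apart from the other 3 of their group in 7 of 176 groups of named genes, no more than the 1 in 20 that chance marks. CTGF was highest in the second 58 nm library at 234.4 FPKM, and ADAM19 in the third at 8.98 FPKM. GDF15 and HSPA1A were highest in the first 58 nm library, at 28.5 and 19.7 FPKM. In controls, EHD1 was lowest in the second library at 20.2 FPKM, C1QBP lowest in the third at 70.2 FPKM, and PECAM1 highest in the second at 1.67 FPKM.

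In 31 named genes the response to 58 nm particles differed from that to 35 nm particles in limma (adjusted p under 0.05, log2 difference 58 nm minus 35 nm; both responses share the controls). Lower after 58 nm were the inflammatory genes CXCL8 (-1.42), ICAM1 (-1.35) and CCL5 (-0.67), with the matrix gene TNC (-0.68). The growth-linked genes NUAK2 (-0.55), ODC1 (-0.54), RRS1 (-0.53), VARS (-0.27) and C1QBP (-0.27) were lower too, as were MFSD2A (-0.44), NOG (-0.35), TFRC (-0.34), ACO1 (-0.33) and the stress genes CDKN1A (-0.32), WARS (-0.32), GDF15 (-0.32), HSPA5 (-0.26), SQSTM1 (-0.19) and HSPD1 (-0.17). EHD1 (-0.31), CAVIN1 (-0.28), CYR61 (-0.27), FLNA (-0.26) and TAP1 (-0.25) complete the lower genes. Higher after 58 nm were MT-ND4L (0.60), IFI44L (0.54), XAF1 (0.34), TXNIP (0.33), OAS2 (0.28), UNC5B (0.20) and CCNB2 (0.12).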

How the results depend on the processing

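The 39 lower interferon-stimulated genes stayed within 1.5 times that count under all 23 alternatives. Leaving out 1 library gave 234 to 511 genes called, 82 to 294 higher and 152 to 223 lower. Fewer than 340 were called without control 2 (268), 3 (234) or 4 (293) or 58 nm library 2 (274) or 3 (327). Higher genes numbered 108, 82 and 135 without control 2, 3 and 4 and 165, 104 and 143 without 58 nm library 1, 2 and 3, and lower genes 152 and 158 without control 3 and 4. Other counts of higher genes were 173 with only the 8 libraries, 104 with no filter (268 called of more genes tested) and 168 with the replicate block and length trend removed. Without the first 58 nm library they were 139 with the length trend removed and 147 in a fit of the libraries compared, both added after seeing the data. Limma-voom called 342 higher and 376 lower. Higher against lower genes were 206 and 260 after upper-quartile rescaling and 198 and 266 after quantile normalization. The cause of these shifts was not tested.

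Same-numbered libraries did not deviate together (correlations -0.058 to 0.0037), which does not show whether they were handled together. The main fit did not pair them, and the replicate block gave 250 higher and 214 lower genes.

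Genes that did not pass changed sign as follows. Without the first 58 nm library ICAM1 was at -0.046, TJP1 at 0.015, ABCG2 at 0.025 and HSPA1A at -0.059, also in the fit of the libraries compared, and with the length trend removed at -0.063, 0.023, 0.019 and -0.089, where NQO1 was at -0.0032 and CDKN1A at -0.014. With length and GC trends removed ICAM1 was at -0.0069, ABCG2 at 0.024, HMOX1 at -0.0074, HSPA1A at -0.075 and CDKN1A at -0.013. HSPA1A was at -0.022 with the length trend removed, with or without the block. Quantile normalization gave ABCG2 0.0064, CDKN1A -0.0018 and LAMP1 -0.0058. Over the fits that left out 1 library, ICAM1 ranged from -0.046 to 0.20, CCL2 from -0.34 to 0.044, TJP1 from -0.099 to 0.015, PECAM1 from -0.0041 to 0.13, ABCG2 from -0.038 to 0.025 and HSPA1A from -0.059 to 0.067.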
